A study of Homo sapiens with 4 samples.

Results

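Transcript levels of 10 genes of the BCL2 family were compared in NCI-H520, an established human lung squamous cell carcinoma line of wild-type genotype, between cells given ultrapure water (Vehicle) and cells given 10 µM Hx1R8 for 12 h. The members were the rows of the deposited gene count table named BCL2, BCL2L1, BCL2L2, MCL1, BAX, BAK1, BID, BAD, BCL2L11 and BBC3, which are 10 of 28277 genes, and all 10 were found and passed the low-count filter. Each group held 2 libraries of the same line in medium with 15% fetal bovine serum. By its title the series deals with SOX2 condensates and resistance to chemotherapy, and the comparison asks whether the transcripts that set the threshold for cell death differ after Hx1R8, a compound whose composition the labels do not give.

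The BCL2 family decides whether the outer mitochondrial membrane stays intact. The effectors BAX and BAK1 can assemble into pores that release cytochrome c into the cytosol, where it sets off the caspases. The protective members BCL2, BCL2L1 (BCL-XL), BCL2L2 (BCL-W) and MCL1 hold the effectors and their activators in check. The BH3-only members BID, BAD, BCL2L11 (BIM) and BBC3 (PUMA) carry damage and stress signals, either by engaging the effectors or by occupying the groove of the protective members. Much of the control in this family is exerted on the proteins, for instance through the rapid turnover of MCL1, the cleavage of BID by caspase 8 and the phosphorylation of BAD, and none of it is visible in transcript counts.

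All 10 members share the BH3 core, a short helix and the only such domain that BH3-only proteins have. It is shown here as a stretch found in the 6 death-promoting members and in the 4 protective ones. Each line gives 30 coding bases, 5′ to 3′ on the coding strand, of the principal GENCODE release 29 transcript on GRCh38 (the same build as hg38), with the codon of the first core residue and that of the conserved aspartate in capitals.
BCL2, chr18:63318355-63318384, minus strand: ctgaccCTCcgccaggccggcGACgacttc
BCL2L1, chr20:31721928-31721957, minus strand: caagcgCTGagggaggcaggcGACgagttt
BCL2L2, chr14:23307897-23307926, plus strand: caagccATGcgggcagctggaGATgagttc
MCL1, chr1:150578871-150578900, minus strand: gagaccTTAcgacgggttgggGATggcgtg
BAX, chr19:48955781-48955810, plus strand: gagtgtCTCaagcgcatcgggGACgaactg
BAK1, chr6:33575393-33575422, minus strand: cggcagCTCgccatcatcgggGACgacatc
BID, chr22:17739421-17739450, minus strand: aggcacCTCgcccaggtcgggGACagcatg
BAD, chr11:64271628-64271657, minus strand: cgcgagCTCcggaggatgagtGACgagttt
BCL2L11, chr2:111150097-111150126, plus strand: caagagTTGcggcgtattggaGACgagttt
BBC3, chr19:47226585-47226614, minus strand: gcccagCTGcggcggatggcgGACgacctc
The first capital codon codes for leucine in 9 members and for methionine in BCL2L2, and the second for aspartate in all 10. Leucine was spelled CTC in BCL2, BAX, BAK1, BID and BAD, CTG in BCL2L1 and BBC3, TTA in MCL1 and TTG in BCL2L11. Aspartate was spelled GAC in 8 members and GAT in BCL2L2 and MCL1. The closest windows, with 21 of 30 bases identical, were those of BAD and BCL2L11, of BAK1 and BID, and of BCL2L1 and BCL2L2. BCL2L2 and BID were farthest apart, with 8 of 30. Of 69 annotated protein-coding transcripts of the 10 genes, 42 held a match to this pattern, among them 7 of 17 for BCL2L11, 4 of 11 for BID and 2 of 4 for BBC3. A match anywhere in the protein counted. Coding sequences were read from their first annotated base, so transcripts annotated without their start may have been misread. The pattern searched was leucine or methionine, any 3 residues, glycine, serine or alanine, then aspartate, then aspartate, glutamate, serine or glycine. The deposited counts are per gene, so forms with and without the core, and the long and short forms of BCL2L1, are summed in every value below.

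Each library held between 17259403 and 20920857 counts, and the test covered 14482 genes. The label of a squamous line was checked against 7 markers. SOX2, the lineage factor of squamous lung cancer, was abundant, with 528 ± 18.7 CPM (counts-per-million, scaled by library size) in Vehicle against 510 ± 17.4 in Hx1R8 (SD, n = 2 per group). KRT6A, KRT5 and TP63 were at 19.8 ± 0.121, 1.67 ± 0.339 and 0.431 ± 0.0442 CPM in Vehicle (SD, n = 2), and KRT14 and DSG3 had no read, so several defining markers of the label were scarce or not detected. Markers of other cell types were near 0: 6 immune markers summed to 3.06 to 3.37 CPM in Vehicle and 2.09 to 2.86 CPM in Hx1R8, with PTPRC and CD3E at 0 reads, and 6 fibroblast and endothelial markers to 9.25 to 9.54 and 8.89 to 9.16 CPM, most of it COL1A1, with PECAM1 at 0. Both sums were lower in Hx1R8, and their part in the results below was not tested. Nothing in the labels says that the libraries came from separate cultures, so p-values reflect the spread among these 4 samples alone, possibly a technical one.

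In these cells the protective transcripts came mostly from MCL1 and BCL2L1, while those of BCL2 itself were scarce. On the scale of transcripts-per-million (TPM, counts divided by exon length and scaled to a common total), MCL1 was at 238 and 226 in the Vehicle libraries and 243 and 233 in the Hx1R8 libraries. BCL2L1 was at 163 and 170 TPM in Vehicle and 156 and 161 TPM in Hx1R8. BCL2L2 was at 30.8 and 32.8 TPM in Vehicle and 28.6 and 30.3 TPM in Hx1R8. BCL2, the founding member, was at 3.06 and 3.001 TPM in Vehicle and 2.51 and 3.03 TPM in Hx1R8, which made up 0.699% of the protective transcripts in Vehicle and 0.647% in Hx1R8. MCL1 made up 53.5% of them in Vehicle and 55.6% in Hx1R8, and BCL2L1 38.4% and 36.9%. In bulk RNA, fewer cells with a transcript and less of it per cell cannot be told apart. By mean TPM over the 4 libraries MCL1 stood above 94.4% of tested genes, BCL2L1 above 91.5%, BCL2L2 above 59.9% and BCL2 above 18.3%.

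The death-promoting transcripts were spread more evenly, over BAD, BAK1, BAX and BID. The effector BAX was at 67.8 and 64.4 TPM in Vehicle and 60.7 and 63.9 TPM in Hx1R8, and BAK1 at 69.5 and 69.6 TPM in Vehicle and 69.9 and 70.9 TPM in Hx1R8. BAD, which binds BCL2 and BCL2L1 when it is not held by 14-3-3 proteins, was at 81.6 and 80.2 TPM in Vehicle and 81.6 and 83.3 TPM in Hx1R8. BID, which links death receptors to mitochondria, was at 53.0 and 51.0 TPM in Vehicle and 55.02 and 53.3 TPM in Hx1R8. These 4 made up 28.4% (BAD), 24.4% (BAK1), 23.2% (BAX) and 18.3% (BID) of the death-promoting transcripts in Vehicle. The potent activator BCL2L11 was at 13.6 and 14.1 TPM in Vehicle and 13.7 and 13.99 TPM in Hx1R8. BBC3, like BAX a classical p53 target, was the scarcest member at 2.20 and 2.75 TPM in Vehicle and 2.95 and 2.08 TPM in Hx1R8, from 25 to 33 reads per library. BCL2L11 and BBC3 thus gave a small part of the death-promoting transcripts, 4.86% and 0.871% in Vehicle.

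**Figure D1:**
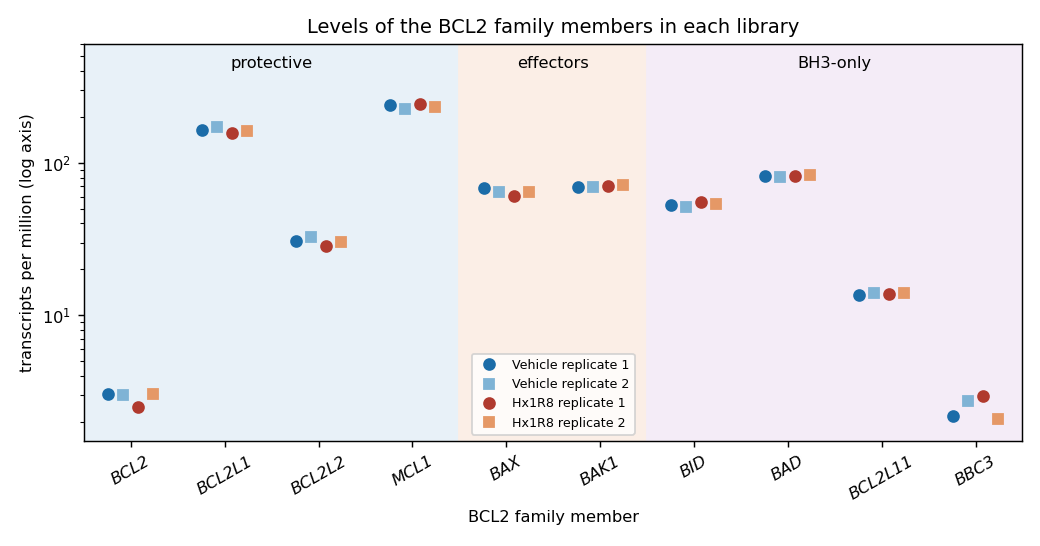
TPM (log axis) of the 10 BCL2 family members in each of the 4 libraries, 1 point per library, with shading for protective members, effectors and BH3-only members. MCL1 and BCL2L1 lie at the top, between 156 and 243 TPM, BCL2 and BBC3 lie at the bottom, and the Vehicle and Hx1R8 points of each gene lie close together.

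The levels fell in order from MCL1 through BCL2L1, BAD, BAK1, BAX, BID, BCL2L2, BCL2L11 and BCL2 to BBC3. Below the first pair this order held whether counts were divided by all exon bases or by unshared ones only. The lowest library of each member lay above the highest of the next, except for BCL2 and BBC3, which overlapped. The gap was widest between BCL2L11 and BCL2, at 4.78-fold, and among non-overlapping neighbours narrowest between BAK1 and BAX, at 1.09-fold. The place of BCL2L1 below MCL1 rests on the length used: only 66.3% of its 3050 exon bases are unshared, and the others overlap ABALON, a noncoding RNA gene on the opposite strand with 117 to 133 reads per library. With full counts divided by unshared bases only, BCL2L1 was at 235 TPM and MCL1 at 226 TPM. This BCL2L1 value is too high if reads in its shared bases were counted, which the sources used here do not tell.

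No member passed the test for a change after Hx1R8. By edgeR's quasi-likelihood test 0 of 10 members passed an adjusted p of 0.05, where 0.0207% of all tested genes did (0.0138% higher and 0.00691% lower), and 0 of 10 were under 0.05 before adjustment, where 3.39% of all tested genes were. DESeq2 and limma-voom also called 0 of 10. The adjusted p was 0.9999 for every member. The median log2 fold change was -0.0080 over the members and -0.0018 over all tested genes, with 4 members above 0 and 6 below. Intervals (95%) of the fold stayed inside 1.5-fold of no change for 10 of 10 members, against 81.4% of all tested genes, and inside 1.2-fold for 8 of 10, against 57.5%. The members outside the narrower bound were BCL2 and BBC3, the scarcest.

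**Figure D2:**
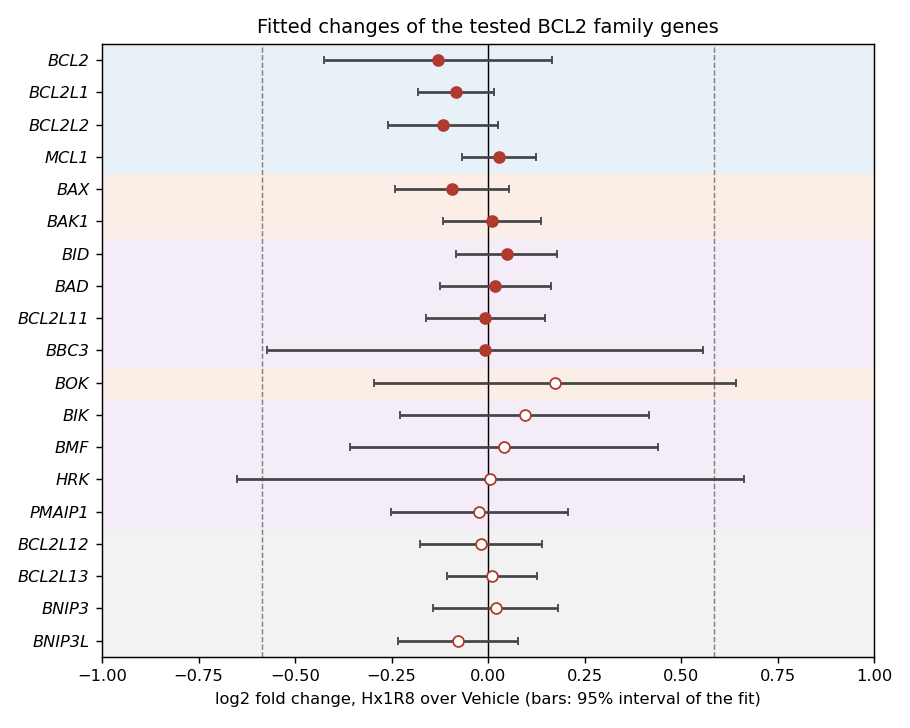
Fitted log2 fold change of Hx1R8 over Vehicle for the 10 members (filled points) and 9 other tested BCL2 family genes (open points), with bars for the 95% interval and dashed lines at 1.5-fold. Every interval crosses 0, and the widest are those of HRK, BBC3 and BOK.

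Among protective members, in 3 of 4 the Hx1R8 libraries both lay under the Vehicle libraries, and none of the 3 passed the test. Of the 6 death-promoting members 1 had both Hx1R8 libraries lower and 2 both higher, and of all 10 members 4 and 2. Over all tested genes 15.2% had both Hx1R8 libraries lower, 14.7% both higher and 29.8% either. BCL2L1 (chromosome 20, 31664452 to 31723963) was at 161 and 169 CPM in Vehicle and 154 and 157 CPM in Hx1R8. Its Hx1R8 libraries thus lay just under the lower Vehicle library. This came to -0.08 on the log2 scale (SE 0.05, adjusted p = 0.9999 by edgeR), with a fold bounded between 0.881 and 1.01 at 95%. BCL2L2 (chromosome 14, 23306762 to 23311759) was at 36.6 and 39.1 CPM in Vehicle and 34.0 and 35.7 CPM in Hx1R8, a log2 fold change of -0.12 (SE 0.07) with an interval from 0.835 to 1.02. Of its 3658 exon bases 83.9% are its own, the rest shared with the read-through gene BCL2L2-PABPN1, which had 5 to 10 reads per library. That gene has 0 of 2059 exon bases to itself, so its count need not reflect its level.

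BCL2 (chromosome 18, 63123346 to 63319380) had 115 and 112 reads in Vehicle and 93 and 135 reads in Hx1R8, or 6.57 and 6.48 CPM against 5.40 and 6.44 CPM. The Hx1R8 libraries lay below both Vehicle libraries, replicate 2 by a narrow margin. Its log2 fold change of -0.13 (SE 0.15), with an interval of the fold from 0.745 to 1.12, went to -0.02 without Hx1R8 replicate 1 and to -0.27 without Hx1R8 replicate 2. MCL1 (chromosome 1, 150574551 to 150579738), the labile member and the most tightly bounded, was at 316 and 301 CPM in Vehicle and 323 and 305 CPM in Hx1R8, with the groups overlapping. Its log2 fold change was 0.03 (SE 0.05), with a fold bounded between 0.953 and 1.09.

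Of the effectors, BAX (chromosome 19, 48954860 to 48961798) was at 33.5 and 32.0 CPM in Vehicle and 30.1 and 31.3 CPM in Hx1R8. The groups did not overlap, with Hx1R8 lower, and the log2 fold change of -0.09 (SE 0.07) did not pass the test. Its fold was bounded between 0.846 and 1.04. BAK1 (chromosome 6, 33572552 to 33580276) varied least of all members, at 48.9 and 49.2 CPM in Vehicle and 49.3 and 49.4 CPM in Hx1R8. Its Hx1R8 libraries were the higher ones, by a log2 fold change of 0.0094 (SE 0.06), with an interval of the fold from 0.922 to 1.10.

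None of the 4 BH3-only members passed the test. BID (chromosome 22, 17734140 to 17774665) was at 45.8 and 44.2 CPM in Vehicle and 47.6 and 45.6 CPM in Hx1R8, overlapping between the groups, with a log2 fold change of 0.05 (SE 0.06) and an interval of the fold from 0.944 to 1.13. BAD (chromosome 11, 64269828 to 64284704, with 89.5% of its exon bases its own and the rest shared with GPR137 on the other strand, which had 821 to 1046 reads per library against 553 to 686 for BAD) was at 32.4 and 32.0 CPM in Vehicle and 32.5 and 32.7 CPM in Hx1R8. Its Hx1R8 libraries lay above both Vehicle libraries by a small margin, a log2 fold change of 0.02 (SE 0.07) with an interval from 0.916 to 1.12. BCL2L11 (chromosome 2, 111120914 to 111168445) was at 27.4 and 28.6 CPM in Vehicle and 27.7 and 27.9 CPM in Hx1R8. Both Hx1R8 values lay between the Vehicle values, and the log2 fold change was -0.0076 (SE 0.08, interval of the fold 0.894 to 1.11). BBC3 (chromosome 19, 47220824 to 47232667) had 25 and 31 reads in Vehicle and 33 and 28 in Hx1R8. With so few reads its log2 fold change of -0.0084 (SE 0.28) was bounded only between a fold of 0.672 and 1.47. These bounds are not the smallest change that the test could have called.

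The distances between replicates are given beside these values. A replicate difference is between single libraries, the group difference between means of 2 libraries. Without any effect the group difference thus tends to be smaller. The median size of the log2 difference over the 10 members was 0.06 between the Vehicle libraries, 0.06 between the Hx1R8 libraries and 0.04 between the groups, against 0.10, 0.07 and 0.05 over all tested genes. The group difference was larger than both replicate differences in 4 members, BCL2L1, BCL2L2, BAX and BAK1, and in 18.7% of all tested genes. In BBC3 the Hx1R8 libraries differed from each other by a log2 value of -0.52 and the Vehicle libraries by 0.33, while the groups differed by -0.0084.

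**Figure D3:**
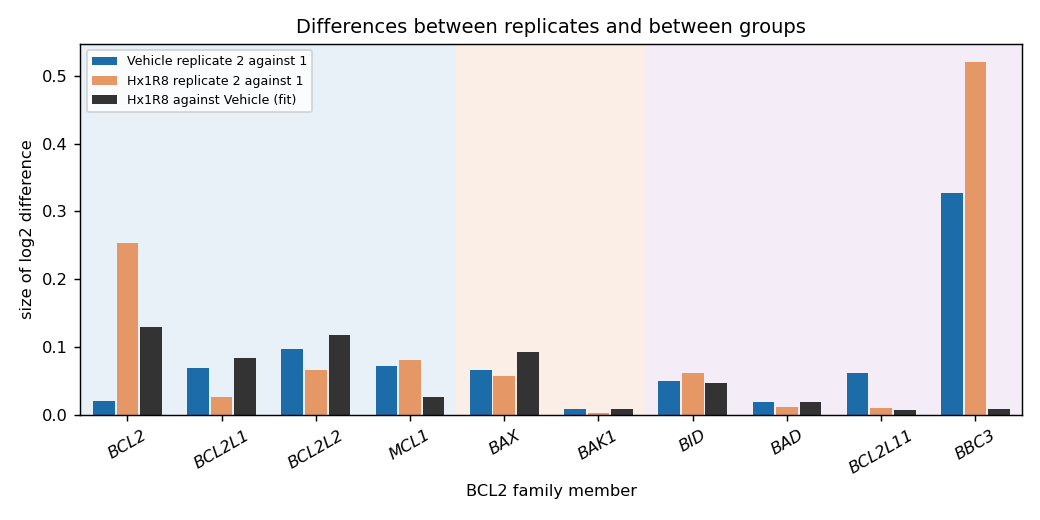
Size of the log2 difference between the 2 Vehicle libraries, between the 2 Hx1R8 libraries and between the groups (fitted), as bars for each member. The group difference rests on 2 libraries per group, a replicate difference on single libraries. BBC3, the member with the fewest reads, has the widest gap between replicates in both groups, up to 0.52. BCL2 has a wide gap between the Hx1R8 libraries (0.25) and a narrow one between the Vehicle libraries. The group difference stays at or under 0.13 for every member.

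The balance between the sides was nearly the same in the 4 libraries. Protective transcripts summed to 435 and 432 TPM in Vehicle and 430 and 427 TPM in Hx1R8, and death-promoting transcripts to 288 and 282 TPM in Vehicle and 284 and 288 TPM in Hx1R8. Their ratio was 1.51 and 1.53 in Vehicle and 1.52 and 1.48 in Hx1R8, and the groups overlapped. On the log2 scale the ratio was 0.61 ± 0.01 in Vehicle and 0.58 ± 0.02 in Hx1R8 (SD, n = 2 each), a difference of -0.02 (exact two-sided permutation p = 0.667, where 2 libraries against 2 cannot go below 0.333). With the same full counts divided by unshared exon bases only, the ratio was 1.764 and 1.801 in Vehicle and 1.755 and 1.730 in Hx1R8. Both Hx1R8 libraries were lower by a narrow margin, with a log2 difference of -0.03 (exact permutation p = 0.333). The ratio stayed above 1 only with both abundant protective members. Without MCL1 it was 0.684 and 0.730 in Vehicle and 0.658 and 0.674 in Hx1R8, and without BCL2L1, a setting chosen after seeing the data, it was 0.946 and 0.928 in Vehicle and 0.967 and 0.926 in Hx1R8. Within the death-promoting side the effectors summed to 136 ± 2.32 TPM in Vehicle and 133 ± 2.996 TPM in Hx1R8, and the BH3-only members to 149 ± 1.70 and 153 ± 0.432 TPM (SD, n = 2 each).

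Ratios of a protective member to a partner it restrains differed widely in level and little between groups. BCL2 to BAX, the ratio often quoted as the cell death rheostat, was 0.0451 and 0.0466 in Vehicle and 0.0414 and 0.0474 in Hx1R8. BCL2L1 to BAX was 2.40 and 2.64 in Vehicle and 2.56 and 2.51 in Hx1R8. BAX transcripts thus outnumbered those of BCL2 in each library and were outnumbered by those of BCL2L1. MCL1 to BAK1 was 3.43 and 3.25 in Vehicle and 3.48 and 3.28 in Hx1R8, and MCL1 to BCL2L11 was 17.6 and 16.0 in Vehicle and 17.7 and 16.6 in Hx1R8. In these 4 pairs the groups overlapped. BCL2L1 to BAK1 was 2.35 and 2.45 in Vehicle and 2.23 and 2.26 in Hx1R8, the 1 pair of 5 in which both Hx1R8 libraries were lower. Its log2 difference was -0.09, with SDs of 0.04 in Vehicle and 0.02 in Hx1R8 (n = 2 each). An exact two-sided permutation test gave p = 0.333, the smallest this design allows, and 1 after adjustment over the 5 pairs.

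**Figure D4:**
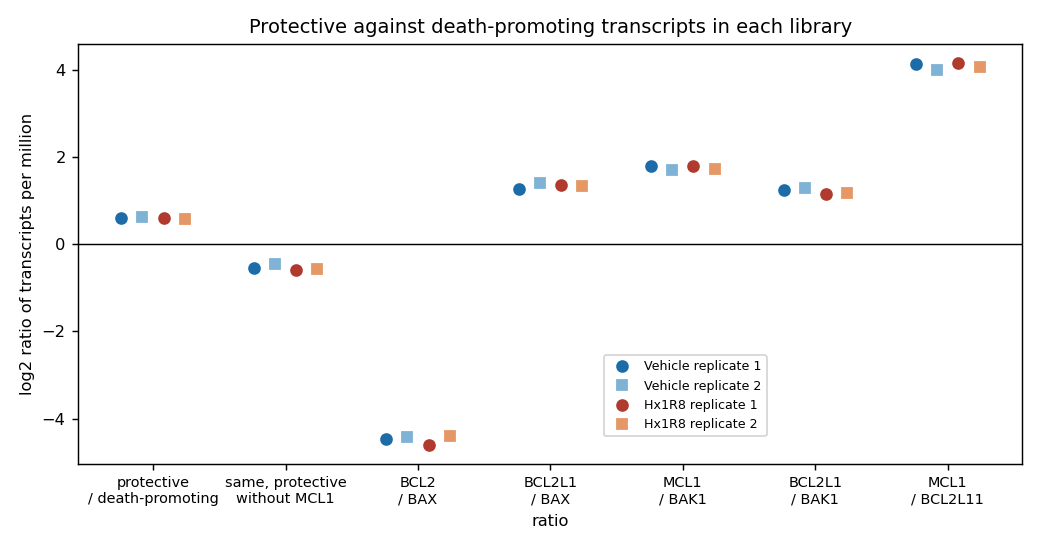
Log2 ratio of protective to death-promoting TPM in each library, for the summed members, for the sum without MCL1 and for 5 pairs of members, with a line at equal levels. The summed ratio lies above 0 with MCL1 and below 0 without it, BCL2 to BAX lies near -4.4 to -4.6, and the libraries of the groups lie close together in each ratio.

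Other genes of the BCL2 family did not pass the test either. Of 13 listed, 9 were tested, and 0 passed, with 0 under an unadjusted p of 0.05 and a median log2 fold change of 0.0094. DESeq2 and limma-voom called none of them. The protective BCL2A1 and BCL2L10 had 1 read each, summed over the 4 libraries, and BCL2L14 and BCL2L15 were below 1 CPM in each library, so none of these 4 could be tested. The third effector-like member, BOK, was at 2.11 and 4.05 CPM in Vehicle and 4.36 and 2.72 CPM in Hx1R8. Its replicates differed by log2 values of 0.94 in Vehicle and -0.68 in Hx1R8, more than the groups did (log2 0.17, SE 0.23). Among further BH3-only genes, PMAIP1 (NOXA, a partner of MCL1) was at 17.2 and 14.2 CPM in Vehicle and 12.8 and 17.7 CPM in Hx1R8, with its lowest and highest values both in Hx1R8 (log2 -0.02, SE 0.11). BIK was at 0.09 (SE 0.16), BMF at 0.04 (SE 0.20) and HRK at 0.0051 (SE 0.32) on the log2 scale. The more distant relatives lay between -0.08 and 0.02, with the mitophagy receptors BNIP3L at -0.08 (SE 0.08) and BNIP3 at 0.02 (SE 0.08), BCL2L12 at -0.02 (SE 0.08) and BCL2L13 at 0.0094 (SE 0.06).

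Of 52 listed genes around the family, 49 were tested and 0 passed by edgeR, DESeq2 or limma-voom, while 4 were under an unadjusted p of 0.05. Their median log2 fold change was 0.01, and 47 of 49 had intervals inside 1.5-fold of no change. Downstream of the mitochondria, cytochrome c (CYCS) stood at 208 ± 10.4 CPM in Vehicle against 210 ± 1.15 in Hx1R8, its cytosolic receptor APAF1 at 43.3 ± 0.578 against 42.1 ± 0.658, and AIFM1 at 101 ± 1.56 against 103 ± 3.10 (SD, n = 2 each). None of these 3 passed, nor did CASP2, a caspase, at -0.06 (SE 0.05) on the log2 scale. Of 5 tested inhibitors of apoptosis, XIAP, which blocks caspases directly, was at -0.0026 (SE 0.06) and BIRC5 at -0.07 (SE 0.05), and BIRC7 had no read.

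None of the listed genes that act on single members passed the test. The MCL1 ubiquitin ligase HUWE1 was at 0.05 (SE 0.05), the deubiquitinase USP9X, which protects MCL1, at 0.06 (SE 0.05) and BTRC at 0.05 (SE 0.09) on the log2 scale, and all 4 genes of MCL1 turnover had intervals within 1.2-fold of no change. VDAC1, VDAC2 and VDAC3, outer membrane channels of which VDAC2 holds BAK1, were at 0.02, 0.0014 and 0.06 (SE 0.05 each). Among 14-3-3 genes, whose products hold phosphorylated BAD, YWHAZ was at 0.03, YWHAQ at 0.03 and YWHAE at -0.04 (SE 0.05 each). SFN, of the same list and named after its values were seen, was lower in both Hx1R8 libraries at -0.22 (SE 0.08), with a fold bounded between 0.769 and 0.962, an unadjusted p of 0.0099 and an adjusted p of 0.9999 by edgeR. In the death receptor arm 0 of 8 tested genes passed, with TNFRSF10B at 0.04 (SE 0.06), RIPK1 at 0.06 (SE 0.06) and CFLAR at -0.02 (SE 0.06). FAS, a death receptor named after its values were seen, had 10 to 13 reads per library and was bounded only between a fold of 0.545 and 1.80. Of 11 transcription factors that act on the family 0 passed, with ATF4 at -0.03, MYC at 0.01 and STAT3 at -0.03 (SE 0.05 each).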

How the data were processed

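RNA sequencing libraries were made from 1.5 µg of total RNA of NCI-H520 cells, per the labels' protocols, with 2 libraries per group. The authors deposited raw read counts per gene, made from reads that STAR 2.7.9 placed on hg38, per the submitters' processing notes. How reads were counted, on which annotation and with which strand setting, the sources used here do not give. Reads in exon bases shared by 2 genes may thus be mixed or lost, those of antisense neighbours where strand was not used. The other deposited column used is exon length, per the file headers. A gene's broken row (2 lines, no reads) was left out.

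The test was edgeR 4.0.16 (R 4.3.3; quasi-likelihood, TMM factors of 0.998 to 1.00, filterByExpr, group as the only term, two-sided, Benjamini-Hochberg over all 14482 tested genes, threshold 0.05). Standard errors and 95% intervals came from the fit. The test script was checked on simulated data. CPM used the TMM factors; TPM divided counts by exon length. Library pairs differed beyond sampling noise (chi-square per gene 1.36 to 2.42). The 2 Vehicle libraries differed most, at 2.42, and the 2 Hx1R8 libraries gave 1.45. Pairs across the groups ran from 1.36 to 2.04, so the spread within Vehicle was above each of them. Alternatives were other factors and filters, DESeq2 1.42.0, limma-voom (limma 3.58.1), robust dispersions, a replicate block and each library left out. Ratios were also taken with the full counts divided by unshared exon bases, and over other sets of members.

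All 10 members and the other family genes are named, with the 3 most abundant genes of each of 8 pathway lists, up to 4 markers per list and those at 0. Some pathway genes that this rule picks are not reported here. The members and lists were chosen with earlier results of these data known. BH3 cores were read from GENCODE release 29 transcripts by a script.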

Additional observations from a re-analysis of the deposited data

How the results depend on the processing

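No member and no other listed family or pathway gene was called under any of the 9 alternatives that kept all libraries or with any single library left out. The adjusted p of the members ran from 0.239 (BCL2L1 without Vehicle replicate 1) to 0.9999. Of 130 recomputed log2 fold changes of members 6 changed sign. With a library left out, MCL1 ranged from -0.012 to 0.068, BCL2L11 from -0.038 to 0.025 and BBC3 from -0.27 to 0.25, and with DESeq2 BBC3 was at 0.0077. Among the other family genes the same settings gave BOK -0.22 to 0.71, BIK -0.12 to 0.32, BMF -0.18 to 0.30, HRK -0.20 to 0.22 (-0.0023 with limma-voom), PMAIP1 -0.29 to 0.18, BCL2L12 -0.062 to 0.030, BCL2L13 -0.031 to 0.046, BNIP3 -0.064 to 0.11 and BNIP3L -0.18 to 0.039. The cause was not tested.

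Over all tested genes 2 were higher and 1 lower after Hx1R8. DESeq2 and robust dispersions each gave 1 higher, and leaving out a library gave 2 to 41 higher and 1 to 38 lower, most without Vehicle replicate 1, with the lone library assumed to vary like the other group. The replicate block left 2 higher and 1 lower and called no member; the samples share only a number, and deviations of same-numbered libraries correlated at 0.032 across genes. The log2 difference in the ratio of protective to death-promoting transcripts moved from -0.021 to -0.076 with the mean log2 TPM of the members and to -0.086 without MCL1. The log2 ratio over the 4 libraries, 0.60, became 0.82 with unshared exon bases, 0.54 with the mean log2 TPM, 0.36 with the other family genes added, -0.54 without MCL1 and, chosen after seeing the data, -0.087 without BCL2L1 (difference 0.014), by the choice of members and lengths. With 1 library left out the log2 difference in the summed ratio ranged from -0.037 (without Hx1R8 replicate 1) to -0.0065 (without Hx1R8 replicate 2), that of BCL2L1 to BAK1 from -0.12 to -0.063, and those of the other 4 pairs crossed 0, with BCL2 to BAX from -0.15 to 0.048. The lowest read counts among members were those of BBC3, 25 to 33 per library.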

Other observations

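Among the genes around the family, 4 had an unadjusted p under 0.05, where 3.39% of all tested genes did, and an adjusted p of 0.9999 by edgeR; ENDOG, HTRA2 and SFN are named after their values were seen. ENDOG, a mitochondrial nuclease, was at 4.74 and 5.26 CPM in Vehicle and 6.91 and 6.06 CPM in Hx1R8 (log2 0.37, SE 0.15). Only 59.9% of its exon bases are its own, the rest shared with SPOUT1. HTRA2, a mitochondrial protease, was at 28.9 and 29.95 CPM in Vehicle and 26.7 and 25.3 CPM in Hx1R8 (log2 -0.18, SE 0.08). Of its exon bases 59.7% are its own, the rest shared with LOXL3 and AUP1. Reads of neighbours may thus be mixed into both genes or lost from them. BIRC6, a large ubiquitin ligase of the inhibitor of apoptosis family, was at 125 and 116 CPM in Vehicle and 129 and 133 CPM in Hx1R8 (log2 0.12, SE 0.05). SFN, the 14-3-3 sigma gene, was at 25.6 and 26.7 CPM in Vehicle and 22.1 and 22.8 CPM in Hx1R8 (log2 -0.22, SE 0.08). In all 4 the groups did not overlap, which their small unadjusted p made likely beforehand. Of the 49 tested genes around the family, 7 had both Hx1R8 libraries higher and 8 both lower. The shares over all tested genes were 14.7% and 15.2%.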
